A study of Mus musculus with 48 samples.

Results

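Cell cycle and DNA replication genes were followed across sorted brain microglia and whole spinal cord of young, old and old repopulated mice. The set is a list of 36 genes picked by symbol, and each of the 36 matched 1 row among the 35870 genes of the count table. It holds 12 genes of DNA replication and nucleotide supply, 22 genes of mitosis and the 2 cyclins that open S phase, Ccne1 and Ccne2. The 48 libraries are polyadenylated RNA from wild type male C57BL/6 mice, 8 in each of 6 groups. Young mice were 3 months old and old mice 23 months old, and both had been given vehicle. Old repopulated mice, called repopulated below, were 23 months old and had taken a blocker of the Csf1r receptor for 5 days, followed by 7 days of recovery. Blocking Csf1r removes microglia, the resident macrophages of brain and cord, and those that survive divide to refill the tissue. Microglia were brain cells sorted on Cd11b and Cd45, proteins that other myeloid cells also carry, and cord was taken whole. Whether each library came from its own animal is not labelled, so a p-value here measures the spread between libraries. In bulk RNA, fewer cells of a type and less RNA per cell cannot be told apart.

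A dividing cell copies its genome in S phase and separates the copies in mitosis. Cyclin E with its kinase starts S phase, the Mcm2 to Mcm7 helicase opens the double helix with its partner Gins2, Pcna holds the polymerase on the template, and ribonucleotide reductase (Rrm1 and Rrm2) and thymidylate synthase (Tyms) supply deoxynucleotides. Transcripts of these genes rise before S phase through E2F factors. Genes of mitosis rise later, in G2. They are under the control of the DREAM and Foxm1 complexes, which bind a promoter element called CHR (cell cycle genes homology region), often beside CCAAT boxes. Adult microglia divide rarely, and they divide widely when they repopulate. Several replication proteins, Pcna and the Mcm helicase among them, also serve in DNA repair or are kept in cells that do not divide, whereas most mitosis transcripts are close to absent outside G2 and M.

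The promoters of the 2 role sets differ in the letters they hold, and 4 are printed so that the elements can be seen. RefSeq promoter windows (GRCm38.p6, 250 bases before to 50 after the start) were found for 29 of the 36 members. They were searched on both strands for TTTGAA (CHR), CCAAT and 4 forms of the E2F site, TTTCCCGC, TTTGGCGC, TTTCGCGC and TTTGCCGC. The E2F forms can overlap each other. CHR was present in 13 of 18 mitosis members with a window, in 1 of 10 replication members (Mcm2) and in 20.2% of all 27025 genes. An E2F form was present in 5 of 10 replication members (Hells, Mcm3, Mcm5, Mcm6 and Mcm7), in 1 of 18 mitosis members (Cdk1) and in 2.605% of all genes. CCAAT was present in 16 of 18 mitosis and 8 of 10 replication members, against 41.1% of all genes. A match describes letters only. The 250 bases before the start are given 5′ to 3′ on the gene's strand for the 2 most abundant mitosis members with CHR there (Ube2c, chr2:164769679-164769928, plus strand, and Ccnb2, chr9:70421555-70421804, minus strand) and the 2 most abundant replication members with an E2F form there (Mcm7, chr5:138171884-138172133, and Mcm6, chr1:128359706-128359955, both minus strand). Capitals mark CHR, CCAAT and E2F letters on either strand.
Ube2c: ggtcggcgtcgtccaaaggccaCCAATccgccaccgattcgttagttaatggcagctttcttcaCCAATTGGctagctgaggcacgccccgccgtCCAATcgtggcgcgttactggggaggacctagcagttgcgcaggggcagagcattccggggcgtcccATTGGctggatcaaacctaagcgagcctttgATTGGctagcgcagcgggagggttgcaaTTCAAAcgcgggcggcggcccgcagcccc
Ccnb2: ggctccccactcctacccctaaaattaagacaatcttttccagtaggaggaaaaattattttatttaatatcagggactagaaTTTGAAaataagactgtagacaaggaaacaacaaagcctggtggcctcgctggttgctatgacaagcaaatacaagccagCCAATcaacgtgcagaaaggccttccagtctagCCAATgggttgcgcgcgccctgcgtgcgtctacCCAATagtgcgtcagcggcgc
Mcm7: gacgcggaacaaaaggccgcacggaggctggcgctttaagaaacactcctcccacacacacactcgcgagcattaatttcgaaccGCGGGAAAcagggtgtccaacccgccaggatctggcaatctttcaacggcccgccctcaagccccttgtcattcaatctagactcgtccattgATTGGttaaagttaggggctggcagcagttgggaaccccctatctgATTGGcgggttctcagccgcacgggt
Mcm6: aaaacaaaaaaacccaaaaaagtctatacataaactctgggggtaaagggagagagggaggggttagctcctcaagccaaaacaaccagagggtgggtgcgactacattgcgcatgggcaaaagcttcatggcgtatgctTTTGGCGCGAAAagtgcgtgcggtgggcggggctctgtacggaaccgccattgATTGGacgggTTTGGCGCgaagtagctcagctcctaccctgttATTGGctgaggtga
In Ube2c the CHR lies on the opposite strand and begins 29 bases before the start, downstream of 6 CCAAT matches. In Mcm6 there are 3 E2F matches, 2 of which overlap.

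Libraries held 18.7M to 34.5M counts in microglia and 15.9M to 33.0M in cord. All 36 members passed the filter on low counts in both tissues, among 14382 genes tested in microglia and 18271 in cord. The 7 microglia markers checked (such as Csf1r, P2ry12 and Tmem119) summed to 31904 to 54435 CPM (counts scaled to a common library size by TMM) in the sorted libraries and to 204 to 436.2 CPM in cord. The sorted libraries were thus rich in microglia transcripts, but they also held markers of other myeloid cells, given below. Neutrophil markers summed to 9591 CPM in old replicate 8. Cord repopulated replicate 6 stood apart, with the lowest TMM factor of the cord (0.906), and the calls within cord that change without it are given beside the cord results.

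In microglia of old mice, summed mitosis transcripts were high above the young level and summed replication transcripts only a little. Summed over the 22 mitosis members, young libraries lay between 34.1 and 51.1 CPM (median 39.9), old ones between 94.2 and 218 (median 132) and repopulated ones between 98.9 and 488 (median 169). Summed over the 12 replication members the ranges were 215 to 239 (median 226), 251 to 343 (median 306) and 259 to 356 (median 295). Mcm3 and Pcna, the most abundant of the 12, weigh most in the replication sum. Of the scarcer ones, some rose more (such as Rrm2) and some were not called (such as Tyms). In both sums, in TMM-scaled CPM, every old and every repopulated library lay above every young one, while old and repopulated libraries overlapped. TMM factors ran from 0.895 to 0.957 in repopulated libraries and from 0.981 to 1.09 in young ones. In TPM the replication sums of repopulated and young libraries overlapped, and repopulated replicate 6 was below every young library. The ratio of the mitosis to the replication sum lay between 0.146 and 0.231 in young, 0.372 and 0.655 in old, and 0.362 and 1.51 in repopulated libraries. The spread between libraries widened in the same order. Repopulated replicates 5 (488 CPM of mitosis transcripts) and 1 (343 CPM) lay far above the other 6, which ran from 98.9 to 176 CPM, inside the range of old libraries.

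**Figure D1:**
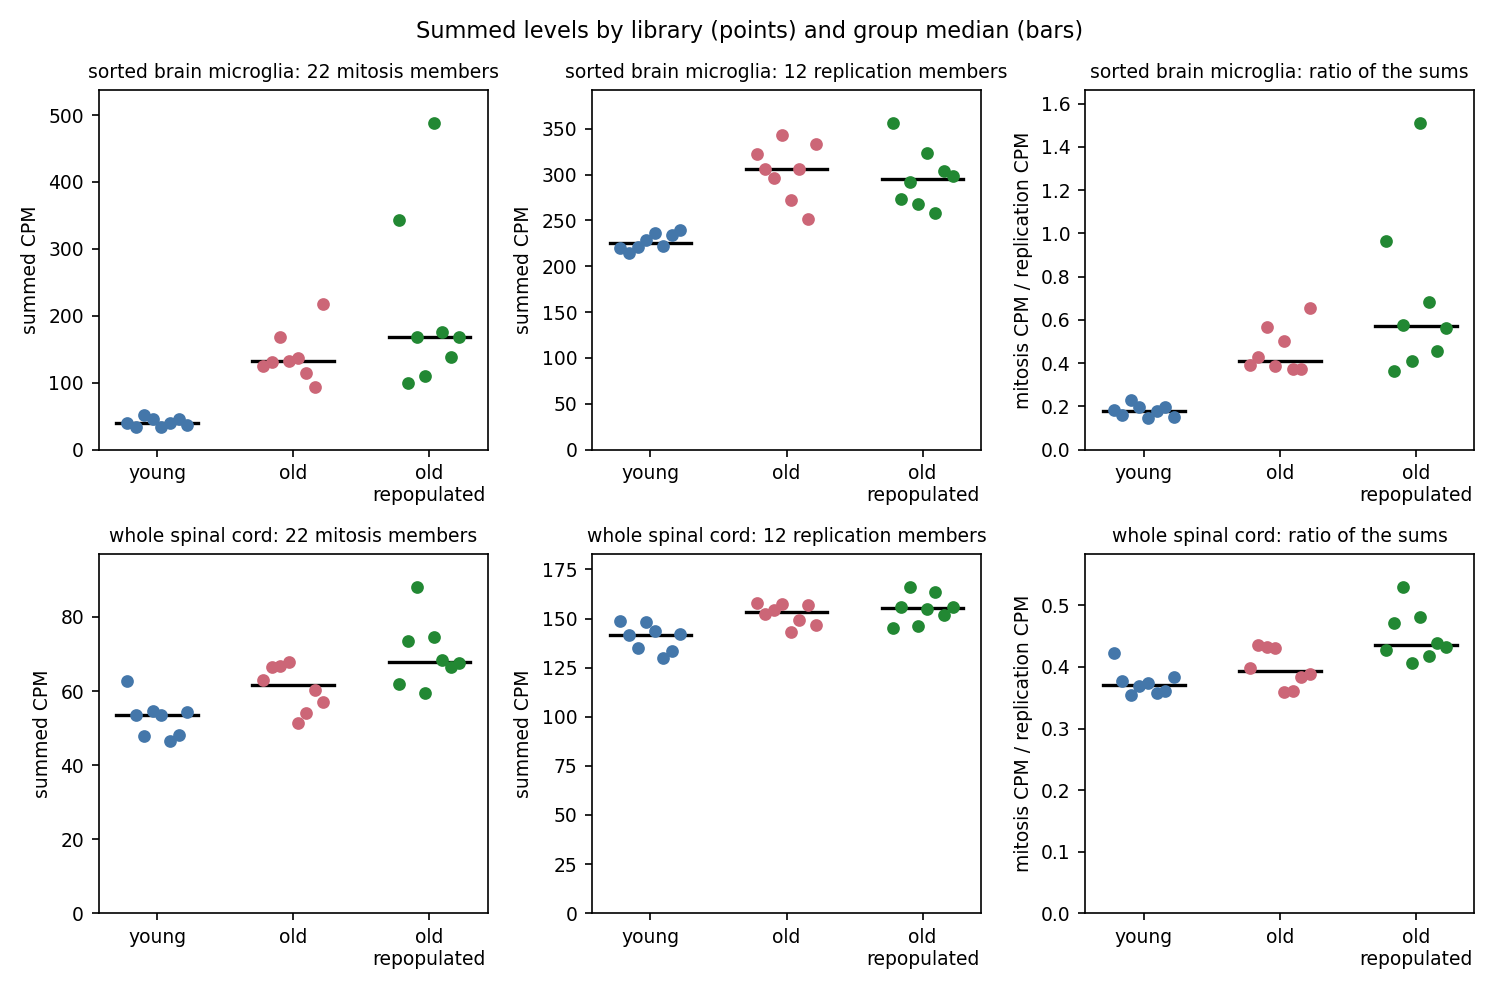
Summed level in CPM of the 22 mitosis members (left), of the 12 replication members (middle) and the ratio of the 2 sums (right), with microglia above and cord below; each point is a library and each bar the median of 8. Mitosis members in microglia rise from a median of 39.9 CPM in young to 132 in old and 169 in repopulated libraries, with 2 repopulated libraries at 343 and 488, while the cord axes span much smaller changes.

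Old against young microglia asks what age changes, and repopulated against young asks how far refilled cells stand from youth; both use the same 8 young libraries. With age, 30 of the 36 members rose (11.0% of all genes tested rose) by edgeR's quasi-likelihood test at an adjusted p under 0.05. None fell (10.7% of all genes did), and none had an unadjusted p under 0.05 in that direction or was called lower by DESeq2 or limma-voom. The median log2 change of the members was 1.46, against -0.01 over all genes. On DESeq2 size factors 11.9% of all genes rose and 7.64% fell, and 30 members still rose. Of the 22 mitosis members 21 rose (median 1.79), of the 12 replication members 8 rose (median 0.72), and of the cyclins E Ccne1 rose. The 6 members that were not called were Ccne2, Mcm3, Gins2, Tyms, Hells and Kif20a. Old and young libraries did not overlap for 9 members (4.12% of all genes were higher without overlap): Ccne1, Mcm6, Cdk1, Ccnb2, Mki67, Top2a, Cenpe, Tpx2 and Prc1.

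In repopulated against young microglia, 29 members rose (16.1% of all genes tested) and none fell (16.5% of all genes), with no member lower at an unadjusted p under 0.05 or by DESeq2 or limma-voom. All 22 mitosis members rose, with a median log2 change of 2.25 against -0.06 over all genes. Of the replication members 6 of 12 rose, Mcm2, Mcm5, Mcm6, Mcm7, Pcna and Rrm2, and the median of the 12 was 0.61. On total-count scaling, where 12.1% of all genes rose and 25.97% fell, 27 members rose. On log2(TPM + 1) and on log2(TPM + 0.1), which shift the median of all genes to -0.28 and -0.41, 26 members rose and 2, Mcm3 and Rrm1, were called lower. Over all genes 8.60% rose and 42.7% fell on the first of these scales, and 8.54% and 43.5% on the second. Without repopulated replicates 1 and 5, a setting added after the data were seen, 27 members rose and the medians were 1.89 for mitosis and 0.35 for replication. There was no overlap with young libraries for 13 members (7.20% of all genes were higher without overlap).

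**Figure D2:**
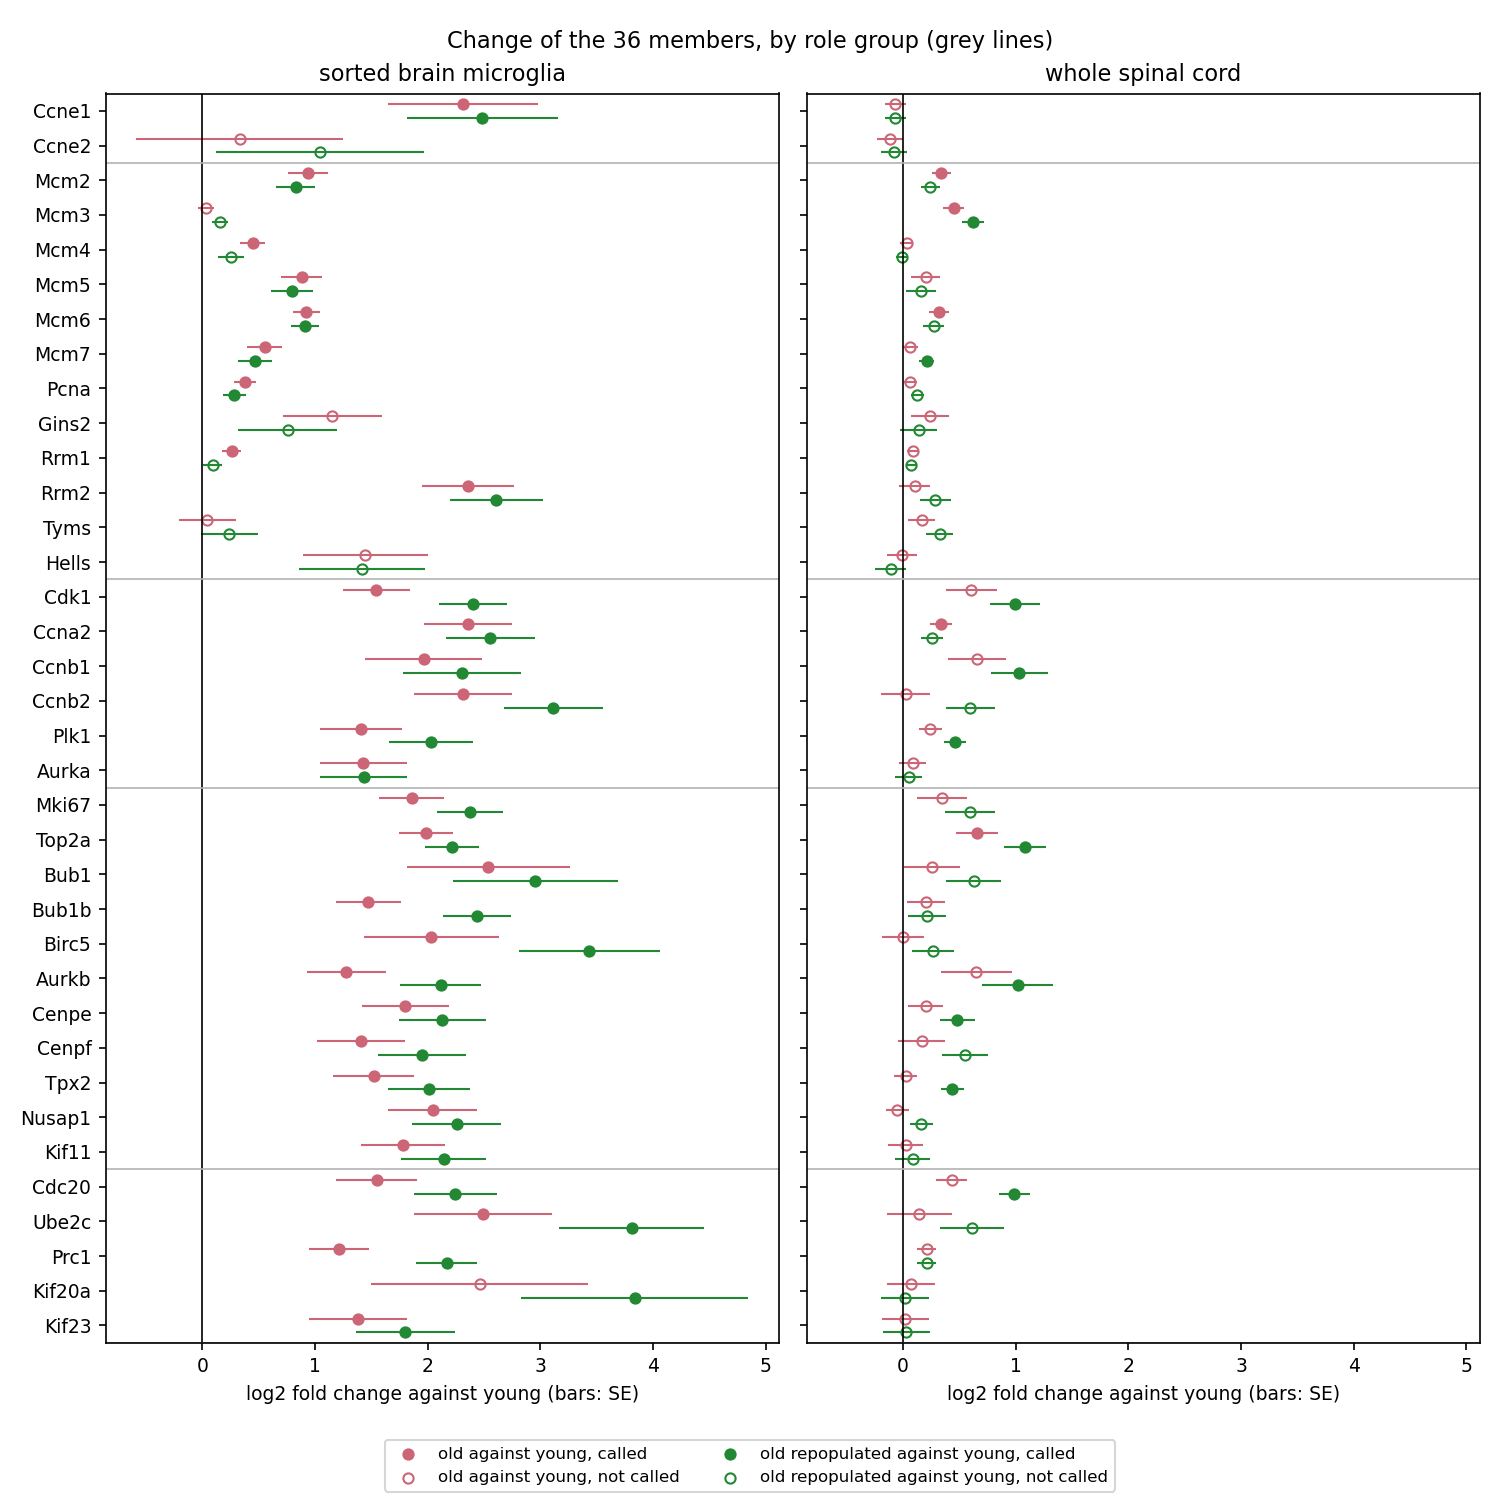
Log2 fold change against young of each of the 36 members in microglia (left) and cord (right), on the same axis; filled points passed an adjusted p of 0.05, bars are the standard error, and grey lines part the 5 role groups. In microglia most mitosis members sit between 1 and 3 and most replication members below 1, and in cord most members sit near 0.

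Among the starters of S phase, 1 of the pair passed the test in microglia. Ccne1, which encodes cyclin E1, ran from 0 to 0.34 CPM in young libraries (median 0.271), from 0.368 to 2.78 in old (median 1.04) and from 0.607 to 3.00 in repopulated ones (median 1.07). Every old and repopulated library was above every young one, although young libraries held at most 12 counts of it. The log2 change was 2.32 (SE 0.67, adjusted p = 0.011) with age and 2.48 (SE 0.67, adjusted p = 0.004) in repopulated cells. Ccne2, its close relative cyclin E2, lay between 0.161 and 0.544 CPM in young, between 0 and 1.19 in old and between 0 and 1.79 in repopulated libraries. The groups overlapped throughout, and the log2 changes of 0.33 (SE 0.92) and 1.05 (SE 0.92) were not called. Its few counts give wide errors, so a change of moderate size was not detectable at this depth.

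The replication members held the most abundant transcripts of the set and changed least. Measured per length, Pcna averaged 103 TPM (the deposited length-scaled unit) and Mcm3 56.9 TPM over the 24 microglia libraries, against 5.40 TPM for Mki67. Pcna, the sliding clamp of DNA polymerase, ran from 42.9 to 56.9 CPM in young (median 49.6), from 42.1 to 78.4 in old (median 67.6) and from 51.2 to 71.7 CPM in repopulated libraries (median 61.6). Most old libraries were higher, but the lowest old library (replicate 7) was below every young one. Pcna rose 1.30-fold with age (log2 0.38, SE 0.10, adjusted p = 0.0052) and 1.22-fold in repopulated cells (log2 0.29, adjusted p = 0.027). The second of these calls was lost without repopulated replicate 1, and on log2(TPM + 1) the value was -0.04.

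Mcm3, a subunit of the replicative helicase, was not called. It ran from 66.7 to 75.9 CPM in young (median 68.5), from 60.8 to 81.3 in old (median 71.1) and from 66.1 to 95.0 in repopulated libraries (median 78.0). The groups lay on top of each other, with log2 changes of 0.03 (SE 0.07, adjusted p = 0.84) and 0.15 (SE 0.07, adjusted p = 0.095). In repopulated against young cells its value was -0.17 on both TPM scales, where it was called lower. The 5 other helicase subunits rose with age, by log2 0.45 (Mcm4), 0.55 (Mcm7), 0.88 (Mcm5), 0.92 (Mcm6) and 0.94 (Mcm2). Mcm6 had the smallest adjusted p of these, at 12.1 to 18.02 CPM in young and 24.7 to 35.6 in old libraries, without overlap (SE 0.12, adjusted p = 7.1e-07), and 20.5 to 40.4 CPM in repopulated ones (log2 0.91, SE 0.12, adjusted p = 4.1e-07). In repopulated cells Mcm2, Mcm5 and Mcm7 were called as well, and Mcm4 was not (log2 0.26, SE 0.11, adjusted p = 0.083).

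The subunits of ribonucleotide reductase, the enzyme that makes deoxynucleotides, differed in size of change. Rrm1, the large subunit, ran from 26.8 to 34.8 CPM in young (median 28.9), from 32.5 to 42.4 in old (median 35.4) and from 26.4 to 39.4 in repopulated libraries (median 31.7). Its groups overlapped, with a log2 change of 0.26 with age (SE 0.09, adjusted p = 0.028), lost when young replicate 1, young replicate 2 or old replicate 1 was left out, and of 0.09 (SE 0.09, adjusted p = 0.48) in repopulated cells. On log2(TPM + 1) and log2(TPM + 0.1) the age change was not called (0.18 and 0.19), and in repopulated against young cells Rrm1 was called lower (-0.22 and -0.23). Rrm2, the small subunit, whose transcript peaks in S phase, ran from 0.628 to 1.80 CPM in young (median 1.05), from 1.65 to 13.6 in old (median 4.94) and from 2.56 to 16.8 in repopulated libraries (median 4.75). Old replicate 2 was the only old library inside the young range, and no repopulated library was. Rrm2 rose 5.12-fold with age (log2 2.36, SE 0.41, adjusted p = 5e-05) and 6.10-fold in repopulated cells (log2 2.61, SE 0.41, adjusted p = 6.6e-06), the largest changes in its role group. The other 3 of the group were scarce and uncalled. Tyms, thymidylate synthase, ran from 4.35 to 8.16 CPM in young (median 6.21), 3.87 to 8.55 in old (median 6.93) and 1.86 to 11.4 in repopulated libraries (median 7.33), with log2 changes of 0.04 (SE 0.25) and 0.24 (SE 0.25). Gins2 of the helicase complex had medians of 1.29, 3.34 and 2.62 CPM and Hells, a chromatin remodeler of S phase, 0.845, 1.82 and 2.33 CPM. Old libraries spread on both sides of the young ones, from 0.446 to 7.20 CPM for Gins2 and from 0.203 to 5.19 for Hells (log2 1.15, SE 0.44, adjusted p = 0.06, and 1.45, SE 0.56, adjusted p = 0.063, with age). Both Gins2 and Hells stayed uncalled in repopulated cells (adjusted p = 0.2 and 0.05), though the Hells value sits at the threshold.

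All 6 cyclins and kinases of S, G2 and mitosis rose in old and in repopulated microglia. Cdk1, the kinase that drives entry into mitosis, ran from 0.408 to 4.71 CPM in young (median 3.33), from 6.19 to 13.9 in old (median 8.29) and from 11.6 to 28.8 in repopulated libraries (median 13.1). Neither later group overlapped the young one. Its log2 change was 1.55 with age (SE 0.30, adjusted p = 0.00019) and 2.40 in repopulated cells (SE 0.30, adjusted p = 1.5e-07). Ccnb2, cyclin B2, a partner of Cdk1, ran from 0.267 to 1.94 CPM in young (median 1.27), from 3.87 to 8.60 in old (median 5.40) and from 3.08 to 33.7 in repopulated libraries (median 5.84). Again there was no overlap with young libraries, and the repopulated libraries spanned the widest range (log2 2.31, SE 0.43, adjusted p = 0.00013, and 3.12, SE 0.44, adjusted p = 1.2e-06). Plk1, polo-like kinase 1, which acts on centrosomes and kinetochores, ran from 0.986 to 3.09 CPM in young (median 1.74), from 2.80 to 8.95 in old (median 4.35) and from 2.04 to 18.05 in repopulated libraries (median 5.95). Its lowest old and repopulated libraries fell inside the young range (log2 1.41, SE 0.37, adjusted p = 0.0048, and 2.03, SE 0.37, adjusted p = 5.9e-05). Cyclin A2 (Ccna2), cyclin B1 (Ccnb1) and Aurora kinase A (Aurka) rose by log2 2.36, 1.96 and 1.43 with age.

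All 11 members that act on chromosomes, the spindle and the spindle checkpoint rose in both comparisons against young. Mki67, the coat protein of mitotic chromosomes that is used as the Ki-67 stain for dividing cells, ran from 3.85 to 12.3 CPM in young (median 7.38), from 15.5 to 51.4 in old (median 23.9) and from 16.9 to 92.0 in repopulated libraries (median 35.8). Every old and repopulated library was above every young one. Mki67 rose 3.62-fold with age (log2 1.86, SE 0.29, adjusted p = 9.8e-06) and 5.19-fold in repopulated cells (log2 2.38, SE 0.29, adjusted p = 9.3e-08). Top2a, the topoisomerase that untangles sister chromosomes, ran from 3.29 to 9.06 CPM in young (median 4.97), from 14.2 to 33.0 in old (median 19.9) and from 12.3 to 40.1 in repopulated libraries (median 22.5). It did not overlap either, and its log2 changes were 1.99 (SE 0.24, adjusted p = 1.4e-07) and 2.22 (SE 0.24, adjusted p = 8.4e-09). Aurkb, Aurora kinase B, which corrects faulty spindle attachments, ran from 1.26 to 2.22 CPM in young (median 1.58), from 0.413 to 5.46 in old (median 4.54) and from 2.95 to 14.6 in repopulated libraries (median 6.28). Old replicate 2 was below every young library, and no repopulated library was (log2 1.28, SE 0.35, adjusted p = 0.0075, and 2.11, SE 0.36, adjusted p = 2e-05). The largest called rise with age was in this group, Bub1, a kinase of the spindle checkpoint, with 0 to 1.91 CPM in young and 0.884 to 5.00 in old libraries (log2 2.54, SE 0.72, adjusted p = 0.0099). Its partner Bub1b, the survivin gene Birc5, the motor proteins Cenpe and Kif11, and Cenpf, Tpx2 and Nusap1, which work at kinetochores and spindle fibres, rose by log2 1.41 to 2.04 with age.

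Of the 5 members of anaphase and cytokinesis, 4 rose with age and all 5 in repopulated cells. Ube2c, the ubiquitin carrier of the anaphase-promoting complex, ran from 0.334 to 2.13 CPM in young (median 0.69), from 1.74 to 10.1 in old (median 4.59) and from 0.217 to 51.2 in repopulated libraries (median 4.84). Repopulated replicate 2 was below every young library and replicate 5 was the highest, so the group lay on both sides of the young range. Its log2 change was 2.49 with age (SE 0.61, adjusted p = 0.0029) and 3.81 in repopulated cells (SE 0.64, adjusted p = 1.8e-05). Cdc20, the activator of the same complex, ran from 0.668 to 3.49 CPM in young (median 1.75), from 2.76 to 8.21 in old (median 5.82) and from 3.33 to 20.8 in repopulated libraries (median 6.64). The ranges of both later groups overlapped the young one at their ends (log2 1.55, SE 0.36, adjusted p = 0.0019, and 2.25, SE 0.37, adjusted p = 1.3e-05). Prc1, which bundles the microtubules of the central spindle, ran from 0.91 to 2.44 CPM in young (median 1.68), from 2.48 to 5.72 in old (median 3.49) and from 4.80 to 11.6 in repopulated libraries (median 6.96). Neither group overlapped the young one (log2 1.21, SE 0.26, adjusted p = 0.0008, and 2.17, SE 0.27, adjusted p = 1.1e-07). Kif20a, a motor of cytokinesis, was not called with age (log2 2.46, SE 0.96, adjusted p = 0.066), at up to 0.374 CPM in young libraries, 1.46 in old ones and 7.52 in repopulated ones with some at 0 in each group, but showed the largest called rise of all members in repopulated cells (log2 3.84, SE 1.01, adjusted p = 0.0033). Kif23, of the same motor family, rose by log2 1.38 and 1.80.

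**Figure D3:**
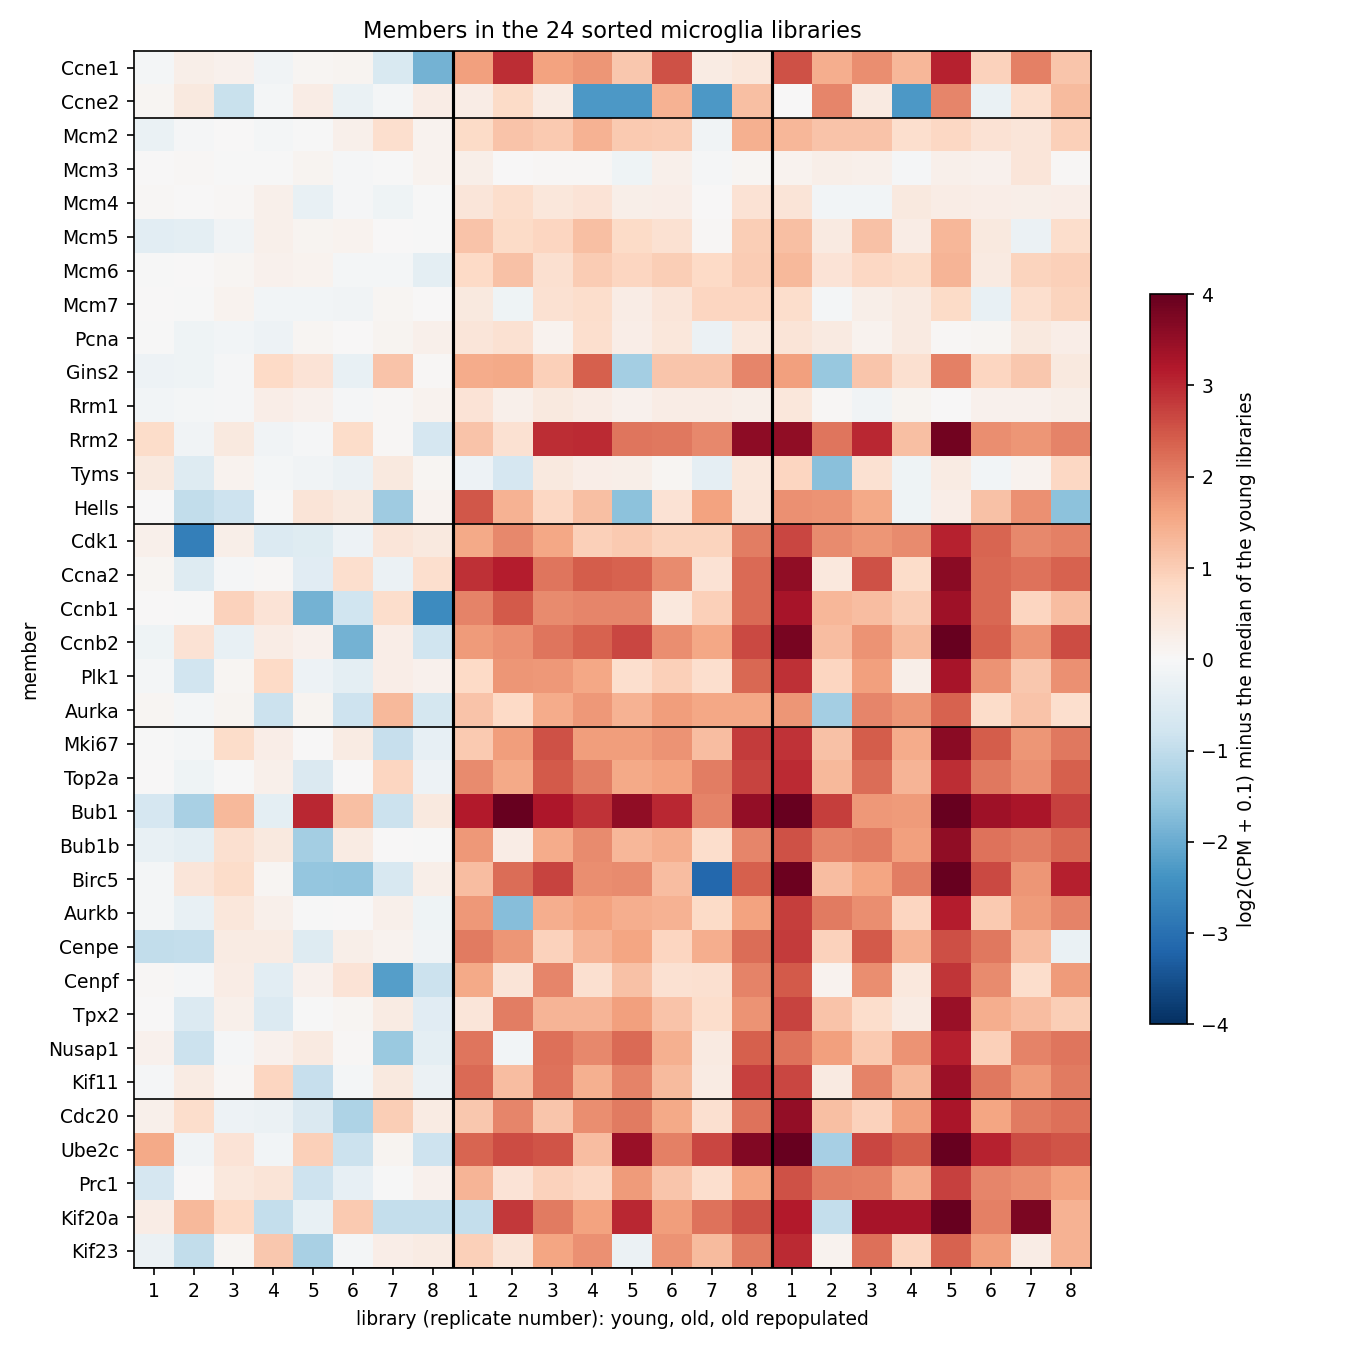
Log2(CPM + 0.1) of each member in each of the 24 microglia libraries, minus the median of the 8 young libraries, with the colour scale ending at 4 on either side of 0; vertical lines part young, old and repopulated libraries and horizontal lines the role groups. Columns of repopulated replicates 1 and 5 are the darkest red across the mitosis rows, and the rows of Mcm3, Pcna and Rrm1 stay pale.

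Repopulated against old microglia asks whether refilled cells differ from those of old mice given vehicle. The old libraries are the same as in the age comparison. Here 3 of the 36 members rose (9.05% of all genes tested) and none fell (7.20% of all genes). No member was lower at an unadjusted p under 0.05, by DESeq2 or by limma-voom, but on total-count scaling and on log2(TPM + 1), which shift the median of all genes to -0.21 from -0.04, Mcm4, Pcna and Rrm1 were called lower. Over all genes the split was then 4.12% higher and 19.3% lower on total counts and 3.44% and 29.8% on log2(TPM + 1). The median log2 change was 0.53 over mitosis members, all 22 above 0, and -0.08 over replication members. The called members were Cdk1 (log2 0.85, SE 0.29, adjusted p = 0.039), Bub1b (log2 0.96, SE 0.28, adjusted p = 0.017) and Prc1 (log2 0.95, SE 0.26, adjusted p = 0.0095). Bub1b, a spindle checkpoint kinase relative, lay between 2.53 and 8.10 CPM in old (median 5.79) and between 6.61 and 24.6 in repopulated libraries (median 9.21), all of the latter above the young maximum of 3.19. Old and repopulated libraries overlapped for each of the 36 (2.09% of all genes were higher without overlap). Prc1 reached 5.72 CPM in its highest old library and 4.80 in its lowest repopulated one.

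The calls over old microglia changed with single libraries. Cdk1 was no longer called without any one of old replicates 4, 5, 6 and 7 or repopulated replicates 1, 5 and 6, nor on total counts or either TPM scale, and Bub1b was no longer called without repopulated replicate 5 or on log2(TPM + 0.1). Without old replicates 2 and 7 together, a setting added after the data were seen, 1 member was called, with Cdk1 at log2 0.90 and Bub1b at 0.76. Without repopulated replicates 1 and 5, no member was called and the median of the mitosis members was -0.09, with Cdk1 at log2 0.56, Bub1b at 0.61 and Prc1 at 0.70. Without replicate 5 alone 1 member was called and the mitosis median was 0.27, and without replicate 1 alone 2 were called and it was 0.41. In those 2 libraries the mitosis sum reached 0.963 (replicate 1) and 1.51 (replicate 5) of the replication sum, against at most 0.682 in the other 6. Mki67 ranged over 15.5 to 51.4 CPM in old and 16.9 to 92.0 in repopulated libraries, with a log2 change of 0.52 (SE 0.28, adjusted p = 0.22). For Top2a the log2 change was 0.23 (SE 0.23, adjusted p = 0.56), for Rrm2 0.25 (SE 0.38), for Pcna -0.10 (SE 0.10) and for Mcm3 0.12 (SE 0.07), none of them called. Ube2c (log2 1.32, SE 0.58) and Birc5 (log2 1.40, SE 0.57) had large values with wide errors and were not called. A missed threshold does not show that the groups are alike.

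Markers of other myeloid cells moved with the groups in the sorted libraries. All 10 neutrophil markers (such as S100a8, Ngp and Camp) were higher in old than young microglia and all 10 lower in repopulated than old, with sums of 248 to 1090 CPM (young), 2262 to 9591 CPM (old) and 872 to 3829 CPM (repopulated). Of the 6 monocyte markers 6 rose with age and 4 fell after repopulation, with sums of 71.7 to 204, 488 to 1201 and 233 to 604 CPM. Of 6 markers of early granulocytes, cells that divide in bone marrow, Mpo, Prtn3 and Fcnb rose with age and none was called in repopulated against old by edgeR (0 of 6 also at an unadjusted p under 0.05), with sums of 0.22 to 34.0, 30.8 to 172 and 2.85 to 272 CPM. All 22 of these markers passed the filter on low counts. The 2 old libraries with the most mitosis transcripts, replicates 8 (218 CPM) and 3 (168 CPM), were also the 2 with the most early granulocyte transcripts. Among repopulated libraries the order differed: replicate 5, the highest in mitosis transcripts, held 24.01 CPM of early granulocyte markers, replicate 1 held 58.7 and replicate 3, with 169 CPM of mitosis transcripts, held 272. Replicate 8 held the fewest, 2.85 CPM, beside 168 CPM of mitosis transcripts.

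**Figure D4:**
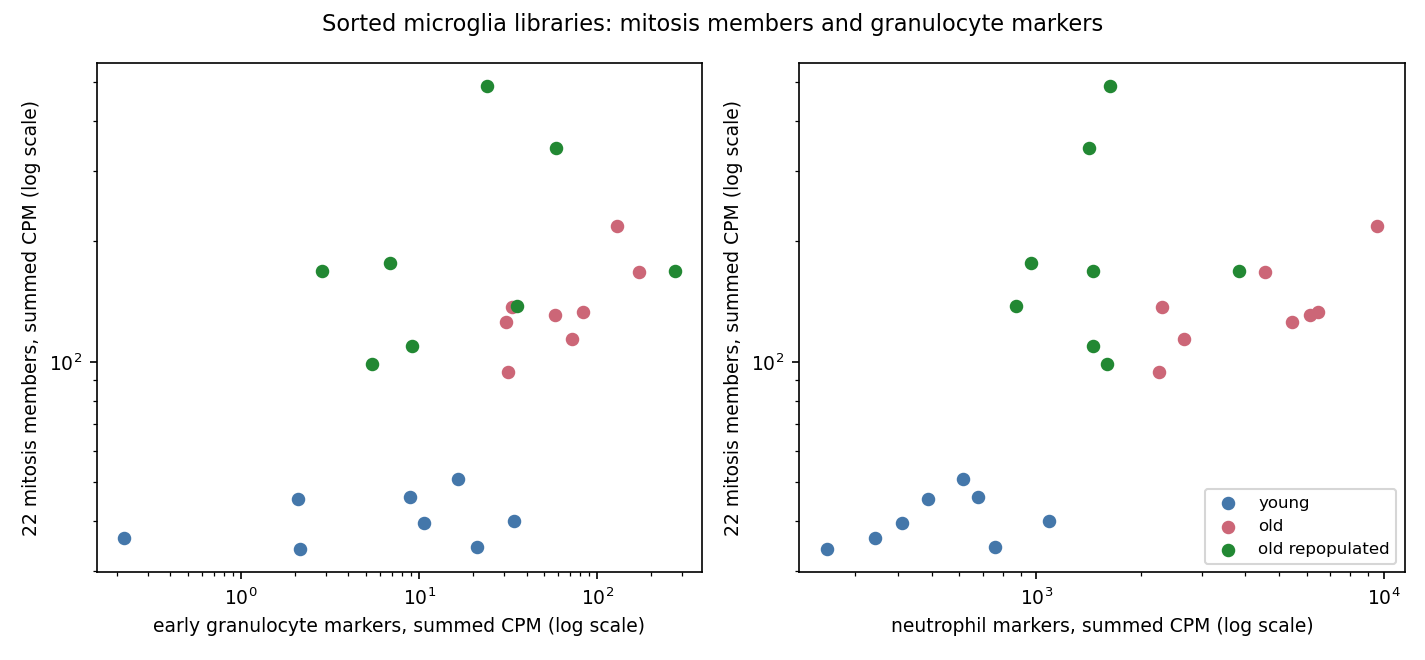
Summed CPM of the 22 mitosis members against summed CPM of early granulocyte markers (left) and neutrophil markers (right) in the 24 microglia libraries, both axes on a log scale, 1 point a library. Early granulocyte sums span 0.22 to 34.0 CPM in young, 30.8 to 172 CPM in old and 2.85 to 272 CPM in repopulated libraries, and the point highest in mitosis transcripts (488 CPM) is a repopulated library at 24.01 CPM.

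Markers of other cell types differed in level and direction. In young, old and repopulated libraries, sums were 149 to 269, 271 to 523 and 128 to 379 CPM for myelinating oligodendrocytes. They were 91.4 to 206, 114 to 311 and 44.2 to 181 CPM for endothelial cells, and 42.0 to 73.0, 32.7 to 219 and 21.5 to 62.3 CPM for B cells. At an unadjusted p under 0.05, 2 of 5, 4 of 5 and 3 of 6 of these markers were lower in repopulated against old, and 0 higher. In repopulated against old libraries all 6 markers of border-associated macrophages fell, from sums of 287 to 628 CPM in old to 69.7 to 146 CPM, after 3 of 6 had risen with age. T and NK cell markers summed to at most 18.2 CPM in any microglia library, with Cd3e, Cd3d and Cd3g too low to be tested. Of the 4 tested markers of oligodendrocyte precursors, which divide in the adult brain, only Cspg4 rose. Its level was at most 6.33 CPM in young libraries against at least 25.7 CPM in old libraries and at least 20.7 CPM after repopulation. Pdgfra stayed at or below 1.78 CPM, and Gpr17 and Neu4 were too low to be tested. Against young, no tested marker of the list but Cspg4, with Olig1 and Olig2 among them, had an unadjusted p under 0.05. All 7 microglia markers fell with age. The part of other cell types in the members' rise was not tested.

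Cell cycle genes outside the set moved in the same 2 comparisons against young, with control genes moving in both directions. The shares over all genes tested were 11.0% higher and 10.7% lower with age, and 16.1% and 16.5% in repopulated against young cells. Of 35 other mitosis genes tested, 20 rose and 1 (Ncaph) fell with age, led by the kinase gene Pbk (log2 2.14, SE 0.37) and by Cdca3 (log2 1.82, SE 0.34), and 26 rose and 1 fell in repopulated cells (medians of the list 1.37 and 1.90). Of 33 other replication genes 9 rose with age, led by the methylation reader Uhrf1 (log2 2.25, SE 0.27) and the chromatin assembly gene Chaf1a (log2 1.68, SE 0.37), and 12 in repopulated cells (medians 0.39 and 0.42). Of 13 E2f, Myb and Foxm1 regulators 4 rose and 2 fell with age, and 6 rose and 1 fell in repopulated cells, with E2f2 (log2 1.51 and 1.15) and the E2f partner Tfdp1 (log2 0.58 and 0.91) up in both. Of 12 checkpoint and Cdk1 control genes 1 rose with age (Cdc25b, log2 1.13), no larger a share than over all genes, and 4 in repopulated cells. With age 5 of the 12 were higher and 0 lower at an unadjusted p under 0.05. Against old, 9.05% of all genes rose and 7.20% fell. Repopulated cells there had 3 of 35 other mitosis genes higher (Incenp, Ncapd2 and Racgap1), no larger a share than over all genes. At an unadjusted p under 0.05, 9 of the 35 were higher and 0 lower. Neither replication nor checkpoint genes were called by edgeR, 0 of 33 and 0 of 12 (1 and 0 at an unadjusted p under 0.05). Among the E2f regulators Lin9 (log2 0.69) and Tfdp1 (log2 0.33) were higher and E2f3 lower (log2 -0.42).

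Against old microglia, repopulated cells had 3 of 6 G1 cyclins and kinases lower and none higher (median log2 -0.20), and 2 of 10 inhibitors and pocket proteins higher and none lower (median 0.08), where 9.05% of all genes rose and 7.20% fell. Ccnd1, cyclin D1, which carries growth signals into G1, ran from 87.9 to 125 CPM in young, from 110 to 141 in old and from 73.8 to 101 in repopulated libraries. No repopulated library reached the lowest old one, and Ccnd1 rose with age (log2 0.21, SE 0.08, adjusted p = 0.048) and was lower in repopulated than in old (log2 -0.44, SE 0.08, adjusted p = 7.5e-05) and young cells (log2 -0.24, SE 0.08, adjusted p = 0.015). Ccnd2 and Ccnd3 also rose with age (log2 0.85 and 0.74) and were lower in repopulated than old cells (log2 -1.31 and -0.52), so 3 of the 6 G1 cyclins and kinases moved each time. Among 10 inhibitors and pocket proteins 3 rose with age (Cdkn1a, Cdkn2d and Cdkn2a), 2 rose over old (Cdkn2c and Cdkn1a), and 4 rose and 2 fell against young. Cdkn1a, the p21 inhibitor of cyclin-dependent kinases, ran from 13.9 to 22.7 CPM in young, from 20.9 to 45.4 in old and from 42.9 to 94.3 in repopulated libraries. Its order was young, old, repopulated, with log2 changes of 0.92 with age (SE 0.16, adjusted p = 6.2e-05) and 0.82 over old (SE 0.16, adjusted p = 0.00041). Cdkn2c, the p18 inhibitor of cyclin D kinases, was higher in repopulated than old cells by log2 1.19 (SE 0.19).

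In whole spinal cord the same members moved little. Summed mitosis members lay between 46.5 and 62.7 CPM in young (median 53.6), 51.3 and 67.8 in old (median 61.6) and 59.4 and 88.2 in repopulated libraries (median 68.0), and summed replication members between 130 and 149, 143 and 158, and 145 and 166 CPM. Every group overlapped its neighbours in both sums. With age 5 members rose (4.88% of all genes tested): Mcm2, Mcm3, Mcm6, Ccna2 and Top2a. None fell (1.26% of all genes), none was lower at an unadjusted p under 0.05 or by DESeq2 or limma-voom, and no member was free of overlap (2.45% of all genes were, on the higher side). Mcm2 ran from 5.53 to 8.86 CPM in young and from 8.33 to 9.96 in old libraries (log2 0.34, SE 0.08, adjusted p = 0.0096), Mcm6 from 7.56 to 10.98 and from 9.92 to 13.9 (log2 0.32, SE 0.09, adjusted p = 0.027). Ccna2, cyclin A2, ran from 2.504 to 3.07 and from 2.76 to 4.45 CPM (log2 0.33, SE 0.10, adjusted p = 0.041). Old libraries were thus higher by small steps, within reach of the young range. Leaving out 1 library lost the call of Ccna2 for 13 of the 24 libraries, of Top2a for 8 and of Mcm6 for 5. Without young replicate 3 or 6 or old replicate 1, 2 or 7 the count was 2, and without young replicate 7 or old replicate 3 or 4 it was 3. Leaving out repopulated replicate 6 added a call of Cdc20 with age (log2 0.43, adjusted p = 0.017, against 0.069 with that library). The median log2 change was 0.17 over the 36 members, 0.20 over mitosis and 0.13 over replication members.

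Repopulated against old cord had no member called in either direction (0.148% of all genes tested rose and 0% fell). By unadjusted p under 0.05, 7 members were higher and 0 lower, DESeq2 called 2 higher and limma-voom called 0. No member was free of overlap (0.0493% of all genes were, on the higher side). The median log2 change was 0.27 over mitosis and -0.03 over replication members. Tpx2, which nucleates spindle fibres, was at 3.42 to 4.33 CPM in old and 4.07 to 6.03 in repopulated libraries (log2 0.41, SE 0.10, adjusted p = 0.14), and Cdc20 at 1.38 to 1.87 and 1.79 to 3.68 CPM (log2 0.56, SE 0.13, adjusted p = 0.13). Leaving out repopulated replicate 6 gave log2 0.41 (adjusted p = 0.18) for Tpx2 and 0.46 (adjusted p = 0.20) for Cdc20.

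Against young cord, which shares its young libraries with the age comparison, repopulated cord had 10 members higher (7.28% of all genes tested) and none lower (2.78%; none at an unadjusted p under 0.05 or by the other tools). They were Mcm3 and Mcm7 of replication and Cdk1, Ccnb1, Plk1, Top2a, Aurkb, Cenpe, Tpx2 and Cdc20 of mitosis. Mcm7 was at 15.1 to 18.4 CPM in young and 17.7 to 25.4 in repopulated cord (log2 0.21, SE 0.07, adjusted p = 0.042), its highest value in replicate 6. In TPM replicate 6 was instead the lowest repopulated cord library for Mcm7 (12.8, next 17.4). In CPM the groups did not overlap for 4 of the 10 members, Mcm3, Cdk1, Top2a and Cdc20 (2.96% of all genes). In TPM Cdk1 and Cdc20 stayed apart, but replicate 6 overlapped young cord for the other members. Its Mcm3 was 3.71 TPM, below the lowest young library (3.79). Its Top2a was 1.25 TPM, inside the young range of 0.872 to 1.91. On total-count scaling 8.33% of all genes rose and 1.51% fell, and 11 members rose. On log2(TPM + 1) and log2(TPM + 0.1) 6 members rose, against 4.52% and 4.44% of all genes. Top2a ran from 1.63 to 3.53 CPM in young (median 2.85), from 2.79 to 5.76 in old (median 4.46) and from 4.37 to 8.35 in repopulated cord (median 5.02). Old libraries bridged the 2 other groups (log2 0.66 with age, SE 0.19, adjusted p = 0.031, and 1.08 in repopulated cord, SE 0.19, adjusted p = 0.00018). Cdk1 ran from 0.669 to 1.45 CPM in young (median 0.864), from 0.57 to 2.004 in old (median 1.64) and from 1.46 to 3.18 in repopulated cord (median 1.79). Replicate 6 was its highest repopulated library in CPM but not in TPM, and the log2 change against young was 0.99 (SE 0.22, adjusted p = 0.0033). Cdc20 ran from 0.892 to 1.44 CPM in young (median 1.29) and from 1.79 to 3.68 in repopulated cord (median 2.31), a clear gap (log2 0.99, SE 0.14, adjusted p = 1.1e-05).

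Several members that were prominent in microglia were not called in cord. Mki67 ran from 2.55 to 9.90 CPM in young (median 5.77), from 4.12 to 9.97 in old (median 7.27) and from 5.71 to 13.8 in repopulated cord (median 7.90), with overlapping groups (log2 0.35, SE 0.22, and 0.59, SE 0.22, adjusted p = 0.092). Rrm2 ran from 1.75 to 3.45, 2.16 to 3.27 and 2.31 to 3.92 CPM, and Ube2c from 0.542 to 1.57, 0.614 to 1.91 and 0.684 to 3.12 CPM. Pcna, at 34.5 to 40.8, 36.9 to 42.1 and 37.7 to 51.4 CPM, and Rrm1, at 26.4 to 29.4, 27.1 to 32.6 and 26.9 to 31.8 CPM, were not called in any comparison. Both cyclins E were more abundant in cord than in microglia and were not called there: Ccne1 had a median TPM of 19.2 in young cord and 0.340 in young microglia. Ccnb2 (log2 0.60, SE 0.22, adjusted p = 0.08), Prc1 (log2 0.21, SE 0.08, adjusted p = 0.12) and Plk1 (log2 0.46, SE 0.10, adjusted p = 0.0027) complete the members described in full, with Aurkb (log2 1.02, SE 0.31, adjusted p = 0.037), all against young in repopulated cord. Of the 10 calls, leaving out 1 library lost that of Cenpe for 17 of the 24 libraries, of Mcm7 for 11 and of Aurkb for 8. Without repopulated replicate 6, 12 members were called: Aurkb was no longer among them (log2 0.86), Cenpf, Mcm2 and Prc1 were added, and Cdk1 (log2 0.88), Plk1 (log2 0.41) and Mcm7 (log2 0.15) stayed called.

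Few cell cycle genes outside the set were called in cord with age, and more in repopulated against young cord. The shares over all genes tested in cord were 4.88% higher and 1.26% lower with age. With age 2 of 35 other mitosis genes (Espl1 and Dlgap5), 1 of 33 replication genes (Orc1) and 0 E2f regulators or checkpoint genes were called by edgeR (1 of 13 and 2 of 11 had an unadjusted p under 0.05), and Ccnd3 rose (log2 0.36, SE 0.06) while Ccnd2 fell (log2 -0.40, SE 0.07). In repopulated against young cord 8 of 35 other mitosis genes (22.9%) and 5 of 33 other replication genes (15.2%) rose, against 7.28% of all genes, led by Espl1 (log2 0.79, SE 0.15), Fam64a (log2 1.04, SE 0.19), Mcm10 (log2 0.41, SE 0.10) and Uhrf1 (log2 0.70, SE 0.17). In repopulated against old cord 0 genes of these lists were called by edgeR, and 6 of 35 mitosis and 3 of 33 replication genes had an unadjusted p under 0.05, all higher. Cdkn2a, the locus of the p16 and p19 inhibitors, rose with age by log2 2.13 (SE 0.28, adjusted p = 5.8e-06), whereas Cdkn1a (log2 -0.10, SE 0.07) and Ccnd1 (log2 0.31, SE 0.14) were not called. Summed microglia markers in cord lay between 204 and 285 CPM in young, 296 and 378 in old, and 329 and 436.2 in repopulated libraries, with 3 of 7 called with age and 4 of 7 in repopulated cord. The part of microglial number in the members' cord values was not tested.

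The difference between tissues was tested directly, as an interaction over all 48 libraries and 19110 genes. With age, 16 members had a larger change in microglia than in cord and 1 a smaller one, against 5.44% and 15.0% of all genes, whose median difference was -0.15. The 16 were Ccne1, Mcm6, Rrm2 and 13 mitosis members. The exception was Mcm3, which in cord lay at 3.78 to 5.72 CPM in young, at 4.94 to 7.34 in old (log2 0.45, SE 0.09, adjusted p = 0.0025) and at 6.15 to 8.82 in repopulated libraries (log2 0.62, SE 0.09, adjusted p = 3.7e-05). Its change in microglia was lower by log2 0.58 with age (interaction -0.58, SE 0.11, adjusted p = 0.00018) and by 0.66 in repopulated libraries (interaction -0.66, SE 0.11, adjusted p = 1.1e-05). In repopulated against young, 22 members had a larger change in microglia (6.11% of all genes) and Mcm3 alone a smaller one (23.5% of all genes, median -0.27). The largest called differences were those of Kif20a (3.62, SE 0.91), Birc5 (2.95, SE 0.68) and Ube2c (2.94, SE 0.74). Without cord repopulated replicate 6 the median over all genes moved to -0.01 with age and -0.06 in repopulated against young, and 24 and 27 members had a larger change in microglia, with Mcm3 again the 1 smaller change in each (-0.43 and -0.44). In repopulated against old, only Prc1 differed (0.91, SE 0.25, adjusted p = 0.017; 3.49% of all genes had a larger and 7.54% a smaller change in microglia). Measured per length, Mcm3 had a median level of 60.5 TPM in young microglia and 4.38 TPM in young cord.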

How the data were processed

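Poly(A)-selected TruSeq v2 libraries, 24 of microglia sorted from brain and 24 of undissected spinal cord, were sequenced, per the labels' protocols. STAR 2.5.2b and mouse build GRCm38.p5 are named in the submitters' processing notes; no counting tool is given in the sources used here. Gene counts are those the authors deposited, taken unchanged. The authors also made TPM (transcripts scaled by length and depth), which serve here for levels between genes and in alternative tests. Their FPKM table was left out. The kit does not mark strand, so antisense reads cannot be told apart.

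In R 4.3.3, genes passing edgeR's filterByExpr (count 10, total 15) were scaled by TMM and tested with edgeR 4.0.16's quasi-likelihood test, fitted over the 24 libraries of a tissue, with Benjamini-Hochberg adjustment over all genes tested; called means an adjusted p under 0.05. Microglia were compared with cord by an interaction over 48 libraries. CPM values are TMM-scaled. Standard errors are the log2 change over the square root of the test's F. The steps were tested on simulated data. Alternatives were other scalings and filters, DESeq2 1.42.0, limma 3.58.1 (voom, and on log2(TPM + 1) and log2(TPM + 0.1)), a replicate block, only the groups compared, and leaving out libraries. Total counts of 15.9M to 34.5M per library leave the members below 1 CPM with few counts.

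Members and lists were chosen with earlier results of these data known. Full values are given, per role group, for the 3 members with the highest mean TPM in microglia, plus Mki67, Top2a, Pcna and Rrm2, and for members whose call differs from most of their group or is the largest; of other lists, the 2 genes with the smallest adjusted p, with Cdkn1a and Ccnd1 always. Genes named beyond that rule were chosen after their values were seen.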

Additional observations from a re-analysis of the deposited data

Results flagged for a closer look

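In 108 groups of 8 libraries (the 15 members described in full, the 2 sums and their ratio), 7 held a library whose gap to its nearest neighbour exceeded, as a share of the range, Dixon's 95% critical value; chance gives about 1 in 20. Each was the highest library of its group. Cord repopulated replicate 6 was so for 4 members, Ccne1 (18.04 CPM, next 14.3), Pcna (51.4, next 42.4), Cdk1 (3.18, next 2.15) and Plk1 (3.62, next 2.92). It also had the lowest TMM factor of the cord libraries, 0.906, whose part in these values was not tested. The direction depended on the unit. In TPM the same library was the lowest of its group for Ccne1 (13.8, next 17.8), Pcna (60.8, next 85.8) and Plk1 (2.44, next 3.03). For Cdk1 it lay inside the range of the others (1.66 TPM). Cord repopulated replicate 3 was so for Mcm3 (8.82 CPM, next 7.40), cord young replicate 1 for the ratio of mitosis to replication (0.422, next 0.383) and microglia young replicate 7 for Top2a (9.06 CPM, next 5.74).

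The change with age differed between microglia and cord for 16 members that changed more in microglia and 1 that changed less, by the interaction test. Over all genes tested the shares were 5.44% and 15.0%. As microglia minus cord on the log2 scale, the differences among members described in full were Ccne1 2.22, Ccnb2 2.15, Ube2c 2.17, Rrm2 2.11, Mki67 1.36, Top2a 1.19, Prc1 0.85 and Mcm3 -0.58. In repopulated against young the counts were 22 and 1, against 6.11% and 23.5% of all genes. The differences were Ube2c 2.94, Ccne1 2.34, Ccnb2 2.31, Rrm2 2.10, Prc1 1.76, Mki67 1.57, Plk1 1.36, Cdk1 1.20, Cdc20 1.07, Top2a 0.95 and Mcm3 -0.66. In repopulated against old 1 member changed more in microglia, Prc1 (0.91), and 0 changed less, against 3.49% and 7.54% of all genes.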

How the results depend on the processing

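In microglia, the members called higher with age and in repopulated against young stayed within 1.5 times of 30 and 29 under every setting tried, 29 to 32 and 28 to 31 when 1 library was left out. On log2(TPM + 1), the median mitosis change exceeded the replication median by 0.52 with age (1.07 in the test reported) and by 1.02 in repopulated against young. There 2 members were called lower on log2(TPM + 1) and 2 on log2(TPM + 0.1), where 42.7% and 43.5% of all genes fell. On these scales Mcm3 (-0.17 on both), Pcna (-0.039 on both) and Rrm1 (-0.22 and -0.23) turned below 0. The median of all genes shifted to -0.28 and -0.41. In repopulated against old, 3 members were called lower on total counts, on log2(TPM + 1) and on log2(TPM + 0.1), where 19.3%, 29.8% and 28.9% of all genes fell. On log2(TPM + 0.1) 1 was higher (3.37% of all genes rose). Members higher were 1 without old replicates 2 and 7 and 0 without repopulated replicates 1 and 5, both pairs chosen after seeing the data. Leaving out 1 library gave 1 to 4, the 1 without repopulated replicate 5.

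In cord, with age, 8 were called by limma-voom, 2 on each TPM scale (3.98% and 3.89% of all genes rose), and 2 to 6 when 1 library was left out. In repopulated against old, DESeq2 called 2, and leaving out 1 library gave 0 to 1 (Cdc20, without repopulated replicate 7). In repopulated against young, 6 were called on each TPM scale (4.52% and 4.44% of all genes rose), and 7 to 13 when 1 library was left out. The excess of mitosis over replication was 0.089 on log2(TPM + 1). Between tissues, DESeq2 found 26 members that differed with age, and in repopulated against old the count was 3 on total counts, 2 by DESeq2 and 0 on log2(TPM + 0.1); leaving out 1 library gave 13 to 24, 1 to 1 and 19 to 27 members with a larger change in microglia. The cause of these shifts was not tested.

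Replicate numbers did not pair the libraries: same-numbered pairs correlated at -0.12 to 0.13 in microglia and -0.49 to 0.43 in cord, and in each tissue 2 of 24 pairs matched best on their own number. With a replicate block, 3 members were called with age in cord, 8 in repopulated against young, and 30, 2 and 29 in microglia. Shares over all genes under the block, limma-voom, DESeq2 and left-out libraries are not given here. Nor are those of the alternative fits between tissues. Members near 1 CPM rest on few counts, and their errors limit what could be detected.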
